A study of Rattus norvegicus with 12 samples.

Results

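The small RNAs of the retina were compared with those of the choroid in rat pups at postnatal day 14 (P14), which closes the phase of vessel loss in oxygen-induced retinopathy. The comparison rests on 4 of the 12 small RNA libraries of the series, chosen by their labels alone: the OIR retina, the OIR choroid, the CTL retina and the CTL choroid. Sprague Dawley pups of the OIR arm lived from birth in oxygen that alternated daily between high and low levels, and CTL pups lived in room air. Each library was made from 5 pooled retinas or choroids, so that every group is 1 library and the spread between animals is not seen. The tissues were compared within each arm, and the 2 arms served as the only repeats of the tissue difference. Levels are given in RPM, the number of unique molecular identifiers (UMIs, random tags that keep PCR copies of a molecule from being counted again) of an RNA for every 1000000 miRNA UMIs of its library. The miRNA UMIs came to 6994293 in the OIR retina against 9211931 in the OIR choroid, and to 12199511 in the CTL retina against 9033745 in the CTL choroid. The files list RNAs with at least 10 UMIs, which left 574 miRNAs in the OIR retina against 718 in the OIR choroid, and 643 in the CTL retina against 745 in the CTL choroid. An unlisted RNA was set to 10 UMIs in a ratio, which then is a bound. The intervals given after ratios are exact 95% intervals on the UMIs and cover counting error only.

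The tissues differed in library make-up before any single RNA is compared. Reads too short to assign took 13.0% of reads in the OIR retina against 28.8% in the OIR choroid, and 10.1% in the CTL retina against 26.9% in the CTL choroid. miRNA reads took 70.1% in the OIR retina against 58.2% in the OIR choroid, and 76.8% in the CTL retina against 52.0% in the CTL choroid. The part of these shares in the results was not tested.

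The retina is neural tissue, in which photoreceptors are the most numerous cells. The choroid is the vascular layer behind it, rich in capillaries, stromal cells and pigment cells. A miRNA represses the mRNAs that pair with its seed, bases 2 to 8 from its 5′ end, and many miRNAs are made mainly by 1 lineage. The miR-182, miR-183 and miR-96 genes form a sensory-cell cluster that photoreceptors express strongly, miR-9 and miR-124 mark neurons, miR-126 marks endothelium, miR-143, miR-145 and miR-199a mark mural and mesenchymal cells, and miR-1, miR-133 and miR-206 mark striated muscle.

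The mature sequences below are those on which the results turn, from RefSeq (build GRCr8), with the seed in capitals. Of 747 miRNAs listed at P14, 673 had a RefSeq sequence by name. The first set leads in the retina.
miR-182: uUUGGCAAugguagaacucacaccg
miR-96-5p: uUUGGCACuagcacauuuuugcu
miR-183-5p: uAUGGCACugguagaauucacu
miR-9a-5p: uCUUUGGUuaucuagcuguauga
miR-181a-5p: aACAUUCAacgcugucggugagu

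The second set leads in the choroid, and its last 3 members share a seed.
miR-126a-3p: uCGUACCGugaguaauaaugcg
miR-199a-3p: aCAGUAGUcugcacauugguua
miR-143-3p: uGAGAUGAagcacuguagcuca
miR-205: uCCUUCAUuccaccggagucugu
miR-1-3p: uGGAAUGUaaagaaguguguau
miR-1b: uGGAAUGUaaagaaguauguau
miR-206-3p: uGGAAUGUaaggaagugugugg

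The third set pairs miRNAs that share a seed but differed in their retina to choroid ratio.
miR-29c-3p: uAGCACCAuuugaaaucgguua
miR-29a-3p: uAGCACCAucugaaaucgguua
miR-384-5p: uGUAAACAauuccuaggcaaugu
miR-30a-5p: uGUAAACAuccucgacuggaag
let-7g-5p: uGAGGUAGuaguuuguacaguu
let-7i-5p: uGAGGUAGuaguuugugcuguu
miR-16-5p: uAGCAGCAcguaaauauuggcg
miR-322-5p: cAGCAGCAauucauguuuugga

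Few miRNAs dominated both retina libraries. The 5 most abundant miRNAs held 58.9% of miRNA UMIs in the OIR retina against 31.2% in the OIR choroid, and 54.6% in the CTL retina against 31.2% in the CTL choroid. miR-182 and miR-9a-5p led both retinas. miR-126a-3p and miR-199a-3p led both choroids. Within an arm, a ratio was called when it passed 2-fold, among miRNAs that reached 20 UMIs in either library. In the OIR arm 76 of 626 miRNAs were over 2-fold higher in the retina (12.1%) and 211 were over 2-fold lower (33.7%). The CTL arm had 70 of 721 higher (9.71%) and 405 lower (56.2%). Scaled by TMM, which centres the bulk of miRNAs, these counts became 114 higher and 163 lower in the OIR arm, and 136 higher and 282 lower in the CTL arm. On the RPM scale, 67 of the miRNAs in the OIR arm and 81 in the CTL arm were unlisted in the retina and set to the bound. In each choroid 0 were unlisted. With unlisted miRNAs left out, 171 of 559 were lower in the OIR arm and 324 of 640 in the CTL arm. The counts higher stayed at 76 and 70. TMM moved the median log2 ratio up by 0.29 in the OIR arm and by 0.69 in the CTL arm, so values near 1 below are read relative to the other miRNAs.

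Across both arms, edgeR's quasi-likelihood test with TMM scaling and the arm as a term called 135 of 722 miRNAs higher in the retina (18.7%) and 147 lower (20.4%), at a Benjamini-Hochberg adjusted p under 0.05. Without the TMM factor 44 were higher and 135 lower. With 4 libraries and 1 residual degree of freedom the test borrows its spread from all miRNAs. Fitted with no arm term, the counts were 117 higher and 270 lower without the CTL retina, 94 and 80 without the OIR choroid, and 39 and 77 without the CTL choroid. Among 103 miRNAs with at least 1000 RPM in 1 or more P14 libraries, 32 passed the test higher in the retina, 36 passed it lower and 35 did not pass. Both retina libraries lay above both choroid libraries for 40 of these 103, below them for 52, and overlapped with them for 11. TMM scaling turned this to 49 above, 43 below and 11 that overlapped. The difference was lopsided in size. On the RPM scale 18 of the 103 were over 10-fold lower in the retina in both arms. None was over 10-fold higher in both, although 11 were over 10-fold higher in the CTL arm. The 1000 RPM could be met in any 1 library. They were met by 65 miRNAs in the OIR retina against 82 in the OIR choroid, and by 71 in the CTL retina against 86 in the CTL choroid. miRNAs high in the choroid could thus enter more easily, which favours the counts below and lower.

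**Figure D1:**
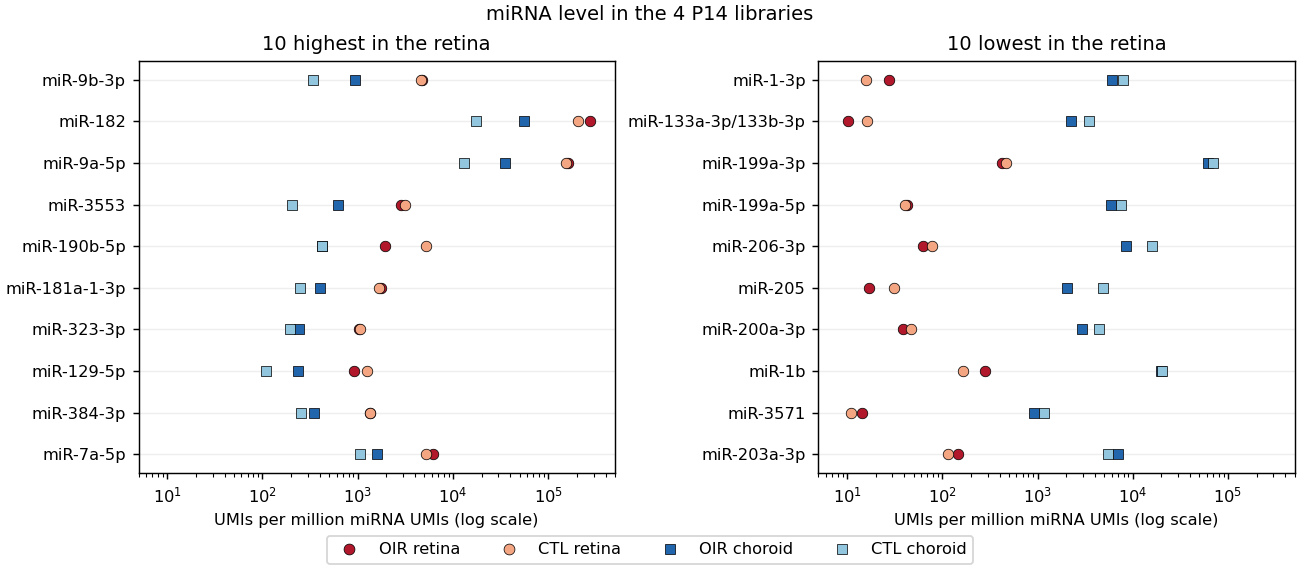
Level of the 10 miRNAs highest and the 10 lowest in the retina relative to the choroid, by the arm ratio nearer to 1, in RPM on a log axis. Circles are retina and squares are choroid libraries, 1 point each. Both retina points lie apart from both choroid points in all 20 rows, by larger gaps in the right panel, where miR-1-3p stood at 27.5 RPM in the OIR retina against 6078 RPM in the OIR choroid.

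The sensory-cell cluster held the largest share of the retina. Its 5 listed members summed to 37.4% of miRNA UMIs in the OIR retina against 8.43% in the OIR choroid, and to 34.5% in the CTL retina against 2.66% in the CTL choroid. All 5 passed the test higher in the retina, against 18.7% of all miRNAs tested. miR-182, the most abundant, stood at 273795 RPM in the OIR retina against 56227 in the OIR choroid, a ratio of 4.87 (4.85 to 4.88). The CTL arm had 207468 RPM in the retina and 17584 in the choroid, a ratio of 11.8 (11.7 to 11.9). The retinas overlapped nowhere with the choroids, and the log2 difference across arms was 3.41 ± 0.56 (SE, edgeR adjusted p = 0.000139). miR-183-5p was 3.79 times higher in the OIR arm and 14.5 times higher in the CTL arm. miR-96-5p had the widest split between arms of these abundant members, 3.18 in OIR and 17.2 in CTL. In the RefSeq annotation the 3 genes lie within 3.91 kb of each other on 1 strand.

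Neuronal miRNAs followed the same direction. Of 22 tested members of the neuronal list, 17 passed the test higher in the retina and none passed it lower. Of all 722 miRNAs tested 18.7% passed higher and 20.4% lower. The list's median log2 difference was 2.58, against -0.53 over all 722. Among the 17, miR-9b-3p is the reverse complement of miR-9a-5p over 18 bases, and miR-9b-5p that of miR-9a-3p over 19 bases. The levels of both are thus uncertain. miR-9a-5p, which acts in neural progenitors and neurons, stood at 161496 RPM in the OIR retina against 34753 in the OIR choroid, and at 154231 RPM in the CTL retina against 12919 in the CTL choroid. Its ratio was thus 4.65 in the OIR arm and 11.9 in the CTL arm, with a log2 difference of 3.39 ± 0.56 (SE, edgeR adjusted p = 0.000148). miR-124-3p, the most neuron-specific of the list, reached 3218 RPM in the OIR retina against 1284 in the OIR choroid, and 5500 RPM in the CTL retina against 340 in the CTL choroid. Its ratio was 2.51 (2.45 to 2.56) in the OIR arm and 16.2 (15.6 to 16.8) in the CTL arm. miR-7a-5p and miR-129-5p also passed the test, with OIR ratios of 3.87 and 3.89 and CTL ratios of 4.99 and 11.5. miR-218a-5p, known from motor neurons, had ratios of 1.953 in the OIR arm and 1.957 in the CTL arm and passed the test. miR-128-3p did not pass (1.47 and 1.33 in the OIR and CTL arms, edgeR adjusted p = 0.0507). miR-138-2-3p did not pass either, with ratios of 0.659 and 0.427, whereas miR-138-5p, the other strand of the miR-138 hairpins, passed higher in the retina.

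The list for retinal interneurons and ganglion cells split by family. miR-181a-5p, found in amacrine and ganglion cells, stood at 2617 RPM in the OIR retina against 893 in the OIR choroid, and at 3390 RPM in the CTL retina against 840 in the CTL choroid. Of 11 tested members 9 passed higher in the retina and none passed lower, all 9 being from the miR-181 family, miR-216a or miR-217. Among all miRNAs tested 18.7% passed higher and 20.4% lower. miR-181a-1-3p, a passenger strand, was among the 10 highest, at 1766 RPM in the OIR retina against 402 in the OIR choroid, and at 1653 RPM in the CTL retina against 246 in the CTL choroid. The list's most abundant member, miR-125b-5p, went the other way: 15702 RPM in the OIR retina against 56346 in the OIR choroid, and 20212 RPM in the CTL retina against 53910 in the CTL choroid (edgeR adjusted p = 0.056). It set the list's sum, which was lower in both retinas.

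Other miRNAs that led in the retina belong to no list of cell types. miR-190b-5p stood at 1914 RPM in the OIR retina against 421 in the OIR choroid, and at 5240 RPM in the CTL retina against 420 in the CTL choroid. The choroids were alike in it, and the CTL retina exceeded the OIR retina. miR-323-3p, a member of the imprinted Dlk1-Dio3 locus, had ratios of 4.19 in the OIR arm and 5.50 in the CTL arm. miR-210-3p, the miRNA most strongly induced by low oxygen, stood at 1319 RPM in the OIR retina against 418 in the OIR choroid, and at 643 RPM in the CTL retina against 211 in the CTL choroid. Its tissue ratio was 3.16 (3.04 to 3.28) in the OIR arm and 3.04 (2.90 to 3.20) in the CTL arm, intervals that overlap, while its level was higher in the OIR library of both tissues. It passed the test higher in the retina (edgeR adjusted p = 0.000243), and the other strand of its hairpin, miR-210-5p, did not pass.

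The lowest retina to choroid ratios were those of striated muscle miRNAs and of miR-199a. miR-1-3p stood at 27.5 RPM in the OIR retina against 6078 in the OIR choroid, 221-fold lower (192 to 256). The CTL arm had 15.7 RPM in the retina and 7941 in the choroid, 507-fold lower (440 to 588). miR-206-3p, which is specific to skeletal muscle, was 134-fold lower in the OIR arm and 202-fold lower in the CTL arm, and miR-133a-3p/133b-3p was 220-fold and 212-fold lower. miR-133a-5p and miR-133c were listed in neither retina, and were at least 36.4-fold and 46.4-fold lower in the OIR arm. miR-133c is the reverse complement of miR-133a-3p/133b-3p over 21 bases, so its level is uncertain. It came to 2.97% of that entry in the OIR choroid and 2.78% in the CTL choroid. miR-1b, whose sequence is nearly that of miR-1-3p, was the most abundant of the list, with 283.8 RPM in the OIR retina against 19937 in the OIR choroid, and 167 RPM in the CTL retina against 20432 in the CTL choroid. Of 13 tested muscle miRNAs 9 passed lower in the retina and none passed higher, with a median log2 difference of -4.43. Among all miRNAs tested 20.4% passed lower and 18.7% higher, with a median of -0.53. The list summed to 0.0589% of miRNA UMIs in the OIR retina against 3.73% in the OIR choroid, and to 0.0455% in the CTL retina against 4.83% in the CTL choroid. Striated muscle is not part of the choroid itself, and the part of attached tissue in the choroid pools was not tested. In such bulk pools fewer cells of a type and less RNA per cell cannot be told apart. miR-499-5p, made from an intron of a slow muscle myosin gene, was among the 4 that did not pass, with ratios of 0.558 in the OIR arm and 0.571 in the CTL arm.

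Epithelial miRNAs formed the next group. miR-205, a marker of stratified epithelium such as that of the ocular surface, stood at 17.2 RPM in the OIR retina against 2025 in the OIR choroid, and at 31.5 RPM in the CTL retina against 4836 in the CTL choroid. It was 118-fold lower in the OIR arm and 154-fold lower in the CTL arm. miR-200a-3p, of the family that keeps epithelial cells epithelial, was 74.7-fold and 94.0-fold lower, and miR-203a-3p, a skin miRNA, was 48.1-fold and 48.2-fold lower. Of 14 tested surface epithelium miRNAs 13 passed lower in the retina and none higher, with a median log2 difference of -5.07. Among all miRNAs tested 20.4% passed lower. One of the 13, miR-203b-5p, is the reverse complement of miR-203a-3p over 20 bases, so its level is uncertain. The 14 summed to 0.119% in the OIR retina against 2.17% in the OIR choroid, and to 0.182% in the CTL retina against 2.79% in the CTL choroid.

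Mesenchymal and mural miRNAs held more of the choroid than any other list. Their 13 listed members summed to 0.318% in the OIR retina against 14.3% in the OIR choroid, and to 0.462% in the CTL retina against 17.01% in the CTL choroid. Of the 13, 12 passed the test lower in the retina, against 20.4% of all miRNAs tested. The median log2 difference of the list was -4.18. miR-199a-3p stood at 426 RPM in the OIR retina against 62065 in the OIR choroid, 146-fold lower, and at 470 RPM in the CTL retina against 70281 in the CTL choroid, 150-fold lower. Its log2 difference was -6.72 ± 0.54 (SE, edgeR adjusted p = 1.51e-07). The other strand, miR-199a-5p, was 138-fold lower in the OIR arm and 186-fold lower in the CTL arm. miR-143-3p, a smooth muscle miRNA, stood at 1396 RPM in the OIR retina against 52358 in the OIR choroid, and at 2782 RPM in the CTL retina against 63147 in the CTL choroid. It was 37.5-fold lower in the OIR arm and 22.7-fold lower in the CTL arm. Its cluster mate miR-145-5p was 27.0-fold and 32.2-fold lower, and miR-152-3p was 22.7-fold and 28.4-fold lower.

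Endothelial miR-126 differed less. miR-126a-3p, which sustains vessel integrity, stood at 7897 RPM in the OIR retina against 85023 in the OIR choroid, and at 9346 RPM in the CTL retina against 80499 in the CTL choroid. It was 10.8-fold lower (10.7 to 10.9) in the OIR arm and 8.61-fold lower (8.56 to 8.67) in the CTL arm, and its other arm, miR-126a-5p, was 8.57-fold and 10.3-fold lower. The log2 differences were -2.78 ± 0.47 for the 3p strand (SE, edgeR adjusted p = 0.000189) and -2.74 ± 0.44 for the 5p strand (SE, edgeR adjusted p = 0.000122). Of 5 endothelial list members 3 passed lower in the retina, which has vessels of its own, and none passed higher. The 3 were miR-126a-3p, miR-126a-5p and miR-126b. The last reached at most 16.3 RPM and is the reverse complement of miR-126a-5p over 17 bases. Neither strand of miR-139, the rest of the list, passed. Over all miRNAs tested 20.4% passed lower.

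Blood cell miRNAs were also lower in the retina. All 7 leukocyte miRNAs passed the test lower, against 20.4% of all miRNAs tested, with a median log2 difference of -1.95. miR-223-3p, of myeloid cells, stood at 41.3 RPM in the OIR retina against 1133 in the OIR choroid, and at 21.0 RPM in the CTL retina against 1154 in the CTL choroid. miR-146a-5p was 12.6-fold lower in the OIR arm and 22.7-fold lower in the CTL arm, and miR-142-3p, present in all blood lineages, was 4.404-fold and 5.93-fold lower. Of 5 erythroid miRNAs 3 passed lower, none of the 5 reached 1000 RPM, and miR-451-5p was 2.68-fold lower in the OIR arm and 10.4-fold lower in the CTL arm. Of the miRNAs from within the Hox clusters, miR-10a-5p stood at 3.86 RPM in the OIR retina against 203 in the OIR choroid, and at 2.21 RPM in the CTL retina against 253 in the CTL choroid. Of 11 Hox cluster miRNAs 3 passed lower and none higher, a share near the 20.4% of all miRNAs tested that passed lower. Their median log2 difference was -5.79, but the list is scarce, with a sum of 7.86 RPM in the OIR retina and 6.48 in the CTL retina. Of those with 20 UMIs, 3 of 4 in the OIR arm and 10 of 10 in the CTL arm were over 2-fold lower. Over all miRNAs these shares were 33.7% and 56.2%. A miRNA with at least 20 UMIs in the CTL choroid but unlisted in the CTL retina has a ratio of at most 0.370 by the bound. Its place in the CTL count was thus fixed in advance.

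Pigment epithelium miRNAs lay close to the bulk of miRNAs. miR-204-5p, the chief miRNA of the retinal pigment epithelium, stood at 7999 RPM in the OIR retina against 16410 in the OIR choroid, and at 9891 RPM in the CTL retina against 18728 in the CTL choroid, 2.05-fold and 1.89-fold lower in the retina, and did not pass the test (log2 -0.49 ± 0.42, SE, edgeR adjusted p = 0.383). miR-211-5p, which shares its seed, had ratios of 0.840 in the OIR arm and 0.973 in the CTL arm, which TMM scaling turned to 1.03 and 1.56. Of 4 list members only the scarce miR-204-3p passed, lower in the retina.

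**Figure D2:**
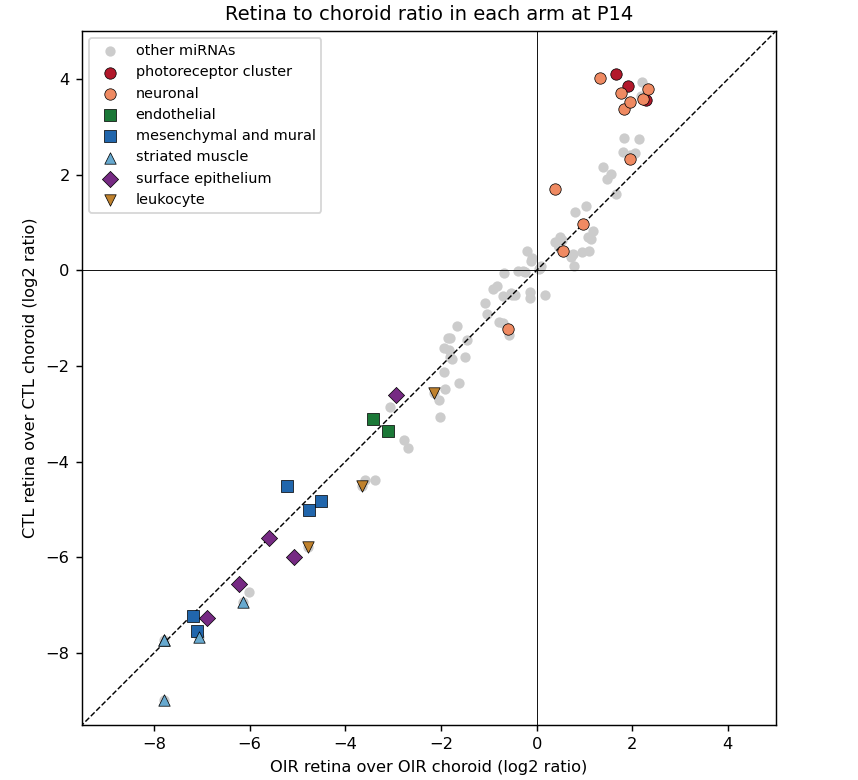
Retina to choroid log2 ratio in the OIR arm (x axis) and in the CTL arm (y axis) for the 103 miRNAs with at least 1000 RPM in 1 or more P14 libraries, coloured by list. The dashed line marks equal ratios in both arms. The sensory-cell cluster and most neuronal miRNAs lie above it on the upper right, such as miR-96-5p with ratios of 3.18 in the OIR arm and 17.2 in the CTL arm.

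The tissue difference was smaller in the OIR arm on the retinal side. Of 22 miRNAs that were over 2-fold higher in the retina in both arms, 21 had the smaller ratio in the OIR arm. Their median ratio was 3.66 in the OIR arm and 8.60 in the CTL arm. All 22 were at least as high in the OIR choroid as in the CTL choroid, by a median of 1.81-fold and by up to 3.78-fold for miR-124-3p, and 10 were over 2-fold higher there. The neuronal list as a whole held 19.5% of miRNA UMIs in the OIR retina against 4.70% in the OIR choroid, and 19.4% in the CTL retina against 2.19% in the CTL choroid. The part of retinal tissue in the choroid pools was not tested. In the retina 9 of the 22 were higher in the OIR library, with a median OIR to CTL ratio of 0.884 and a range of 0.365 to 2.05. The 5 smallest quotients of the OIR over the CTL ratio were those of miR-124-3p (0.155), miR-96-5p (0.185), miR-124-5p (0.257), miR-183-5p (0.262) and miR-3553 (0.299).

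On the choroidal side the arms lay closer. For 39 miRNAs over 2-fold lower in both arms the median was 8.57-fold lower in the OIR arm and 11.8-fold lower in the CTL arm. The quotient was largest for miR-1-3p (2.29), miR-322-5p (2.07), miR-24-3p (2.03), miR-27a-3p (2.02) and miR-223-3p (2.01). TMM raised log2 ratios by 0.29 in the OIR arm and 0.69 in the CTL arm, which lowers every quotient. The mesenchymal and mural median log2 ratio was -4.26 in OIR and -4.50 in CTL, and -3.97 and -3.82 with TMM. The surface epithelium median kept its order, at -5.05 and -5.47, and -4.76 and -4.79 with TMM. With 1 library per group, whether OIR or the makeup of single pools sets these quotients cannot be told apart.

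**Figure D3:**
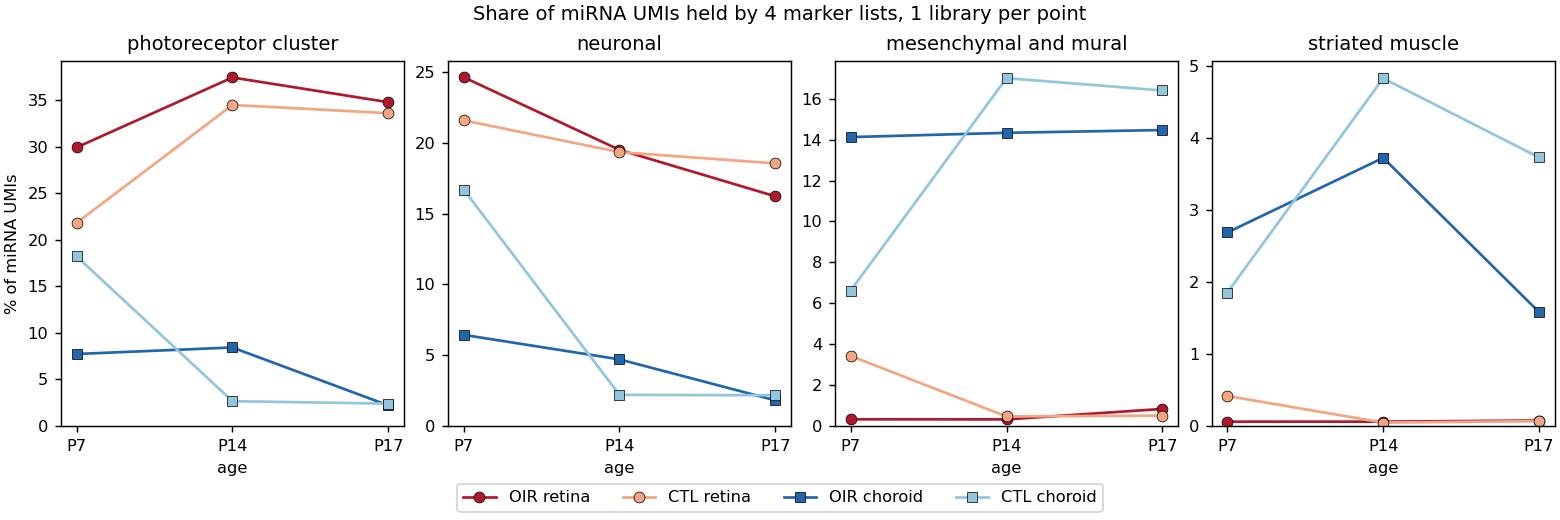
Share of miRNA UMIs held by 4 marker lists at P7, P14 and P17 (y axis in percent, from 0), 1 library per point. At P14 the sensory-cell cluster held 8.43% of the OIR choroid against 2.66% of the CTL choroid, and at P17 it held 2.203% of the OIR choroid and 2.39% of the CTL choroid.

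The other ages show how far P14 is typical. The sensory-cell cluster held 29.9% of the OIR retina against 7.73% of the OIR choroid at P7, and 21.8% of the CTL retina against 18.2% of the CTL choroid. The P7 CTL choroid held more of it than any other choroid library. At P17 it held 34.8% of the OIR retina against 2.203% of the OIR choroid, and 33.6% of the CTL retina against 2.39% of the CTL choroid. The miR-182 ratio in the OIR arm came to 3.43 on P7, 4.87 on P14 and 14.1 on P17, and the CTL arm had 1.14, 11.8 and 12.9 on the same days. The P7 CTL pair lay close in other lists too. There mesenchymal and mural miRNAs held 3.42% of the CTL retina against 6.62% of the CTL choroid. In the P7 OIR arm they held 0.322% of the retina against 14.1% of the choroid. The part of pool make-up in the P7 CTL values was not tested. Tested over the 8 libraries of P14 and P17, in a fit chosen after the data were seen, the tissue difference of P14 differed from that of P17 for 0 of 699 miRNAs by edgeR (0.0%), with 18 higher and 20 lower at an unadjusted p under 0.05. This fit averages the arms, so a change in 1 arm alone enters its spread. How small a change it could call was not tested, so it does not show that the ages are alike.

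Some abundant miRNAs stood level in both tissues. miR-16-5p stood at 45721 RPM in the OIR retina against 43161 in the OIR choroid, and at 47377 RPM in the CTL retina against 44525 in the CTL choroid, a ratio of 1.06 in each arm. miR-26b-5p had ratios of 1.05 and 1.03, and miR-103-3p/107-3p, known for a role in metabolic control, 1.03 and 1.02. Counted in reads in place of UMIs, the ratios of miR-26b-5p and miR-103-3p/107-3p fell just under 1. On the TMM scale miR-16-5p had a log2 difference of 0.57 ± 0.43 (SE, edgeR adjusted p = 0.328).

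miRNAs with 1 seed did not always lie on 1 side. Of 14 seeds with 2 or more members of at least 1000 RPM, 5 had members on opposite sides without overlap of the libraries. For the miR-16 and miR-26 seeds the member on the retinal side was nearly level. These members were miR-16-5p, at 1.06 in each arm, and miR-26b-5p, at 1.05 in the OIR arm and 1.03 in the CTL arm. Which seeds had members on opposite sides depended on the scaling. The miR-29 and let-7 seeds did under miRNA UMIs, reads, UMIs of all RNA classes, total reads and TMM. The miR-30 seed did not under UMIs of all RNA classes, total reads or TMM. The miR-26 seed did not under reads, total reads or TMM, and the miR-16 seed did not under reads. The miR-148 seed joined under total reads and TMM, and the miR-204 seed under TMM. The widest of the 5 on the RPM scale was the miR-29 seed, whose members regulate collagens and other matrix mRNAs. miR-29c-3p stood at 13685 RPM in the OIR retina against 4918 in the OIR choroid, and at 12062 RPM in the CTL retina against 3219 in the CTL choroid. miR-29a-3p, with the same seed, stood at 2165 RPM in the OIR retina against 5943 in the OIR choroid, and at 2112 RPM in the CTL retina against 5804 in the CTL choroid. miR-29c-3p passed the test higher in the retina (log2 2.18 ± 0.44, SE, edgeR adjusted p = 0.000932), and miR-29a-3p did not pass (-0.97 ± 0.40, adjusted p = 0.0656). The 2 are made from separate clusters, miR-29a with miR-29b-1 and miR-29c with miR-29b-2, and miR-29b-3p, which both make, had ratios of 0.671 in the OIR arm and 0.682 in the CTL arm. The median of the 3 family members was -0.58 in the OIR arm and -0.55 in the CTL arm on the log2 scale, and turned to 0.13 in the CTL arm with TMM scaling.

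The let-7 family, which rises as tissues mature, ran from let-7g-5p, with ratios of 1.31 in the OIR arm and 1.498 in the CTL arm, to let-7i-5p, with 0.286 and 0.283. let-7i-5p stood at 8435 RPM in the OIR retina against 29508 in the OIR choroid, and at 12197 RPM in the CTL retina against 43088 in the CTL choroid. let-7b-5p, let-7c-5p and let-7i-5p passed the test lower in the retina, and the other 6 of 9 did not pass. Among all miRNAs tested 20.4% passed lower. The family's median log2 ratio was -0.62 in the OIR arm and -0.48 in the CTL arm, which became 0.01 with total reads and 0.20 with TMM in the CTL arm. Members of this family differ in few bases, and how the alignment shared their reads is not stated.

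The miR-30 seed reached from miR-30a-5p, with ratios of 0.768 in the OIR arm and 0.988 in the CTL arm, to miR-384-5p, with 3.50 and 5.55. The ratio of miR-30a-5p in the CTL arm lay above 1 with UMIs of all RNA classes (1.09), with total reads (1.39) and with TMM (1.59). miR-384-5p stood at 1320 RPM in the OIR retina against 377 in the OIR choroid, and at 1732 RPM in the CTL retina against 312 in the CTL choroid, and passed the test higher (edgeR adjusted p = 9.84e-05). Of the 5 miR-30 members proper, miR-30b-5p passed higher and the other 4 did not pass, a share near the 18.7% of all miRNAs tested that passed higher. Under the miR-16 seed, miR-16-5p was level while miR-322-5p, from an X-linked cluster of growing tissues, was 4.03-fold lower in the OIR arm and 8.34-fold lower in the CTL arm. The miR-148 seed had the widest spread of the 14 on the RPM scale, where miR-152-3p and miR-148a-3p were low in the retina and the tissues overlapped in miR-148b-3p. Of the miR-17 clusters, which drive proliferation, 6 of 11 members passed higher in the retina and none lower. Over all miRNAs tested 18.7% passed higher and 20.4% lower. On the RPM scale 2 of the 11 were over 2-fold higher in each arm. Both retinas lay above both choroids for 7, below them for 3 and overlapped with them for 1. miR-19b-3p led in level, with ratios of 2.11 in the OIR arm and 1.62 in the CTL arm.

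**Figure D4:**
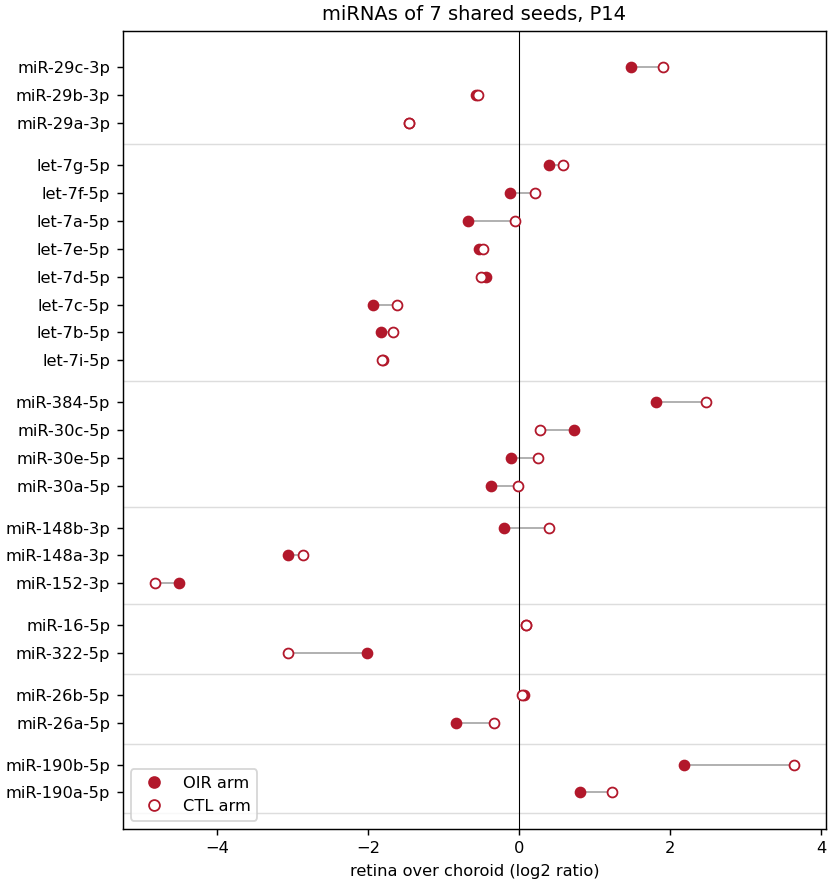
Retina to choroid log2 ratio of miRNAs grouped by 7 shared seeds, with the OIR arm as filled and the CTL arm as open points. The vertical line marks equal levels. miR-29c-3p lies right of it, with ratios of 2.78 in the OIR arm and 3.75 in the CTL arm, and miR-29a-3p left of it, with 0.364 in each arm.

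Clusters of miRNA genes moved as a unit or not, and most miRNAs were lower in the retina to begin with, with a median log2 ratio of -0.60 in the OIR arm and -1.29 in the CTL arm. Genes within 10 kb on 1 strand formed 47 clusters with 2 or more mature miRNAs of at least 20 UMIs. In 21 of them every member was lower in the retina in both arms, and in 3 every member was higher: the cluster of miR-182, that of miR-301b and miR-130b, and that of miR-421 and miR-374b, whose lowest member had a ratio of 1.00 in the OIR arm. The cluster of miR-322, miR-503, miR-351, miR-542 and miR-450 had all 10 mature members lower, with ratios from 0.0915 to 0.573 in the OIR arm and from 0.0305 to 0.135 in the CTL arm. The imprinted Dlk1-Dio3 locus was close to the background of 18.7% higher and 20.4% lower over all miRNAs tested. Of 30 listed members 6 passed the test higher in the retina, among them miR-323-3p and miR-376b-3p, and 5 passed lower, among them miR-379-5p with ratios of 0.295 in the OIR arm and 0.278 in the CTL arm. Its median log2 ratio was -0.45 in the OIR arm and -0.46 in the CTL arm, and became 0.04 with total reads and 0.23 with TMM in the CTL arm.

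The 2 strands of a hairpin usually kept their proportion. Of 65 hairpins with at least 100 UMIs of both strands in all 4 libraries, 35 had 5p to 3p quotients under 1.5-fold apart between the tissues in both arms, and 5 were over 2-fold apart in both. The major strand differed between tissues for 2. The widest shift was that of miR-15b, with 6.45 5p UMIs per 3p UMI in the OIR retina against 2.22 in the OIR choroid, and 7.91 in the CTL retina against 2.23 in the CTL choroid. For miR-376b the major strand changed: the quotient was 0.512 in the OIR retina against 1.58 in the OIR choroid, and 0.471 in the CTL retina against 1.26 in the CTL choroid. For miR-409a it was 1.354 in the OIR retina against 0.670 in the OIR choroid, and 1.356 in the CTL retina against 0.653 in the CTL choroid. let-7i and miR-31a were the other two.

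Among the 20 miRNAs with the most extreme ratios, 3 are complementary to a more abundant one, a relation looked for after their values were seen. Their RefSeq sequences are shown so that it can be read off, seeds in capitals.
miR-9b-3p: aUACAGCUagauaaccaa
miR-3553: cAGUGAAUucuaccagugccaua
miR-3571: uACACACUucuuuacauuccaua

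All 18 bases of miR-9b-3p are the reverse complement of a stretch of miR-9a-5p, 22 bases of miR-3553 that of miR-183-5p, and 21 bases of miR-3571 that of miR-1-3p. miR-9b-3p came to 2.95% of miR-9a-5p in the OIR retina against 2.71% in the OIR choroid, and to 3.02% in the CTL retina against 2.62% in the CTL choroid. miR-3553 came to 4.01% of miR-183-5p in the OIR retina against 3.31% in the OIR choroid, and to 3.55% in the CTL retina against 3.35% in the CTL choroid. miR-3571 held no such proportion to miR-1-3p, at 52.1% in the OIR retina against 15.1% in the OIR choroid, and 71.2% in the CTL retina against 14.8% in the CTL choroid. Against miR-1b, to which it is complementary over 16 bases, it came to 5.04% in the OIR retina against 4.61% in the OIR choroid, and to 6.68% in the CTL retina against 5.75% in the CTL choroid. Whether the counting used the strand of a read is not given in the sources used here, so the levels of these complementary entries are uncertain.

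Fragments of tRNA were scarcer in both retinas. tRNA UMIs came to 6326 RPM in the OIR retina against 38927 in the OIR choroid, 6.15-fold lower, and to 7516 in the CTL retina against 112697 in the CTL choroid, 14.99-fold lower. The CTL choroid held 2.90 times the tRNA of the OIR choroid, and the retinas differed by less. In the OIR arm 2 of 241 tRNA entries were over 2-fold higher in the retina (0.83%) and 96 were lower (39.8%). Of 286 entries in the CTL arm 2 were higher (0.699%) and 170 lower (59.4%). The edgeR test, with miRNA UMIs as library size, called 0 of 297 higher (0.0%), also 0 at an unadjusted p under 0.05 and 0 with DESeq2, and called 82 lower (27.6%). Scaled to tRNA totals with TMM, 8 were higher and 36 lower. Fitted with no arm term, the test called 0 lower without the OIR retina, 55 without the CTL retina, 50 without the OIR choroid and 5 without the CTL choroid. At an unadjusted p under 0.05 the fit without the OIR retina had 0 higher and 13 lower.

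tRNA-Gly and tRNA-Val, whose fragments are common small RNAs of serum and of stressed cells, made up most of the difference. Gly came to 2098 RPM in the OIR retina against 29746 in the OIR choroid, and to 1892 in the CTL retina against 82008 in the CTL choroid. Val came to 213 in the OIR retina against 3432 in the OIR choroid, and to 465 in the CTL retina against 16555 in the CTL choroid. The 2 isotypes were 14.4-fold lower in the OIR arm and 41.8-fold lower in the CTL arm, and all others together were 1.43-fold and 2.74-fold lower. Gln was somewhat higher in the retina in both arms, with ratios of 1.25 in the OIR arm and 1.15 in the CTL arm. Asp and Cys were higher in the retina in the OIR arm alone, Cys with ratios of 1.33 in the OIR arm and 0.854 in the CTL arm. Asp had 1233 in the OIR retina against 1062 in the OIR choroid, but 987 in the CTL retina against 1822 in the CTL choroid. Gly and Val made up 36.5% of tRNA UMIs in the OIR retina against 85.2% in the OIR choroid, and 31.4% in the CTL retina against 87.5% in the CTL choroid.

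By anticodon, Gly-CCC was 38.4-fold lower in the OIR arm and 130.9-fold lower in the CTL arm, against 12.7-fold and 36.3-fold for Gly-GCC. Of 51 tRNA entries with at least 1000 UMIs in 1 library, both retinas lay below both choroids for 39, above them for none, and overlapped for 12. The 1000 UMIs could be met in any 1 library, and the CTL choroid held 1018072 tRNA UMIs against 91696 in the CTL retina. Entries high in the choroid could thus enter more easily, which favours the count below. The lowest of the 51 was a Val-AAC gene, at 21.0 RPM in the OIR retina against 1122 in the OIR choroid, and 60.6 in the CTL retina against 5173 in the CTL choroid. Copies of a tRNA gene share most of their sequence, so how reads were shared among them is uncertain, which the sums by isotype avoid.

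**Figure D5:**
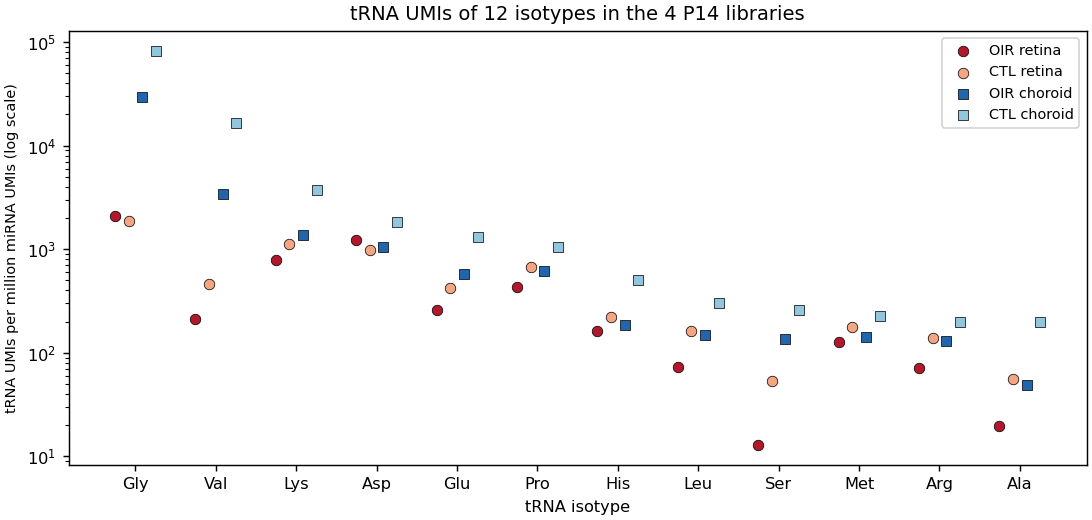
tRNA UMIs per 1000000 miRNA UMIs (log axis) for the 12 named isotypes with the most UMIs in the CTL choroid, 1 point per library. Gln, which was somewhat higher in the retina in both arms, is not among those shown. Gly and Val lie far lower in the retinas than in the choroids, with Gly at 2098 in the OIR retina against 29746 in the OIR choroid, while Asp overlaps.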

How the data were processed

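Small RNA of pooled rat retinas and choroids was sequenced, for which the labels give TRIzol with RNeasy and QIAseq libraries, whereas the study's methods give miRNeasy and TruSeq Small RNA. The deposited values are raw counts of reads and of UMIs per feature, made by the authors with bcl2fastq 2.20, cutadapt and Bowtie on Rnor 6.0. The counting tool and parameters are not given in the sources used here. In all 12 libraries the class reads sum to total reads, and no listed value lies under 10 UMIs.

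Total reads ran from 11081697 to 18692653 at P14. Levels are UMIs per 1000000 miRNA UMIs (RPM). Ratios carry exact conditional (Clopper-Pearson) 95% intervals, and no test over animals can be had within an arm. The tissue test used edgeR 4.0.16 in R 4.3.3 (quasi-likelihood, TMM, arm as a term, at least 10 UMIs in 2 of 4 libraries, unlisted entered as 0). Since only arms serve as repeats, p-values are set against how far the tissue difference varies between the arms. That spread is borrowed from all RNAs of a class and holds any effect of OIR on the tissue difference. It is not the spread between animals. The tRNA test took miRNA UMIs as library size. Alternatives were DESeq2 1.42.0, other filters, reads, no arm term, no TMM, all 12 libraries, leaving out each library, and other denominators and folds. Both fits were tested on simulated data, where the tRNA test recovered the folds but in many draws called none of the changed tRNAs. The tRNA fit without an arm term, the contrast of P14 with P17 and the search for complementary miRNAs were chosen once values were known.

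Named RNAs are list members, the highest and the lowest, the most abundant, and those level, with at least 1000 RPM in 1 library (tRNAs, 1000 UMIs). Members and lists were chosen with earlier results of these data known. Names and sequences came from RefSeq. As Rnor 6.0 and GRCr8 differ, no coordinates are given. piRNAs and other RNAs were not compared.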

Additional observations from a re-analysis of the deposited data

Results flagged for a closer look

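Among miRNAs of at least 1000 RPM, 4 lay on opposite sides in the 2 arms, each with intervals that exclude 1. The difference between arms was not tested, since each arm has 1 library per tissue. The quotient of the OIR over the CTL ratio was 0.797 for let-7f-5p (0.920 in OIR, 1.15 in CTL), 0.662 for miR-148b-3p (0.871 and 1.32), 0.782 for miR-30e-5p (0.930 and 1.19) and 1.61 for miR-99b-5p (1.13 and 0.700). Scaled by TMM, all 4 lay above 1 in both arms: let-7f-5p at 1.13 in OIR and 1.85 in CTL, miR-148b-3p at 1.07 and 2.12, miR-30e-5p at 1.14 and 1.91, and miR-99b-5p at 1.38 and 1.13. On that scale 9 of the 103 abundant miRNAs lay on opposite sides, and none of these 4 was among them.

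Hairpin reads, outside the mature miRNAs compared here, came to 0.571% of miRNA reads in the OIR retina against 0.131% in the OIR choroid, and to 0.563% in the CTL retina against 0.0822% in the CTL choroid. They are given as a signal outside the main measurement that lay above the CTL library of the same tissue, by little in the retina.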

How the results depend on the processing

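The counts of miRNAs over 2-fold apart moved by over 1.5 times in these cases. In the OIR arm, 4-fold left 18 higher and 98 lower in the retina, and 1.5-fold gave 124 and 317. In the CTL arm, 4-fold left 36 and 226, TMM gave 136 higher, and a minimum of 100 UMIs left 197 lower. For tRNAs in the OIR arm, 4-fold left 0 higher and 37 lower, and a whole interval past 2-fold left 0 and 53, while 1.5-fold gave 13 higher, reads 1, total reads 7, TMM 8 and 100 UMIs 0. In the CTL arm, 4-fold left 0 and 86, TMM gave 15 higher and 109 lower, 1.5-fold 6 higher, reads 1, total reads 9, 100 UMIs 1 and whole intervals 0. The edgeR test called 82 miRNAs higher with at least 100 UMIs in 2 libraries (405 tested) and 44 with no TMM factor. Leaving out 1 library, with no arm term, gave 39 to 117 miRNAs higher and 77 to 270 lower, and 0 to 55 tRNAs lower. tRNA totals with TMM gave 8 tRNAs higher and 36 lower, and no arm term, chosen after seeing the data, 49 lower. The cause was not tested.

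In the CTL arm, list medians changed sign for let-7 (0.0146 with total reads, 0.204 with TMM), miR-29 (0.133 with TMM) and Dlk1-Dio3 (0.0365 with total reads, 0.226 with TMM). Of 73 named miRNAs, 5 in the OIR arm and 8 in the CTL arm crossed 1 under TMM, none of them past 2-fold. These are not counted as sign changes, a choice made after the crossings were seen. Tests of named RNAs kept direction and call in 764 fits, lost the call in 49 and gained it in 30. Ratios under 2-fold are within the reach of the scaling.

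The tissue test takes the arm as a term, so each retina is set against the choroid of its arm. Without that term 121 miRNAs were higher and 197 lower. No paired analysis was possible by replicate number because each group has 1 library and the labels give no shared numbers. Seeds with members on opposite sides numbered 5 of 14 on the RPM scale, 3 with reads, 4 with all RNA classes, 4 with total reads and 5 with TMM, not the same seeds throughout, a comparison added after seeing the data.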

Other observations

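The complementary entries were then sought among all miRNAs, after the values had been seen. Among 673 entries with a sequence, 56 pairs were complementary over at least 15 bases in a row. Taking each entry with its longest partner, 17 had a partner of at least 1000 RPM and both listed in all 4 libraries, and the less abundant entry came to a median of 3.11% of the other. In 11 of the 17 that share lay within 1.5-fold over the 4 libraries. miR-3588 came to 3.16% of miR-125b-5p in the OIR retina against 3.10% in the OIR choroid, and to 3.11% in the CTL retina against 3.10% in the CTL choroid. miR-3596d came to 2.02% of let-7f-5p in the OIR retina against 1.98% in the OIR choroid, and to 1.99% in the CTL retina against 2.09% in the CTL choroid. In 5 of the 17 the share spanned over 2-fold. The source of the complementary reads was not tested.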
